A study of Mus musculus with 4 samples.

Results

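Resident-type macrophages of the mouse ventricle were taken as the macrophage nuclei that carried transcripts of a tissue-resident programme. A barcode was a member when it held at least 300 genes and at most 20% mitochondrial unique molecular identifiers (UMIs, counts of single captured transcripts), when Ttn and Ryr2 together were under 1% of its UMIs, when Mrc1, Adgre1, Fyb, Wdfy4, Csf1r and Aoah gave at least 4 UMIs over 2 or more of these genes, when Flt1, Ptprb, Reln and Mmrn1 gave at most 2 UMIs, when Pdgfra, Dcn and Col1a2 gave at most 2 UMIs, and when Cd163, Lyve1, Timd4, Folr2, Vsig4 and F13a1 gave at least 3 UMIs. In all, 461 of 19584 kept barcodes were members, out of 19806 deposited. Another 396 barcodes met every condition except the last and are called other macrophages here. The values of the 21 genes named in the rule and of the mitochondrial genes chose the members, so levels of those genes are given as a description, without a test.

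The study asked how running affects the cell types of the heart. Single nuclei of frozen ventricles, sorted on Hoechst, were profiled with a 10x Genomics 3' assay in 4 libraries from wild-type C57BL/6J mice of both sexes. Mice entered at 8 weeks of age. The sedentary library held 2 pooled hearts of mice without a wheel, and the running library held 2 pooled hearts of mice after 16 weeks of voluntary wheel running. The sedentary infarct and running infarct libraries held 4 pooled hearts each, collected 2 weeks after myocardial infarction surgery in mice with the same respective histories. Each group is thus 1 library. No difference between groups was tested. Every interval between libraries below is a 95% interval that covers counting error only, not the variation between mice. For gene levels and ratios the interval counts UMIs, so it does not cover the variation between nuclei either. In this text the values of a gene in the 4 libraries are always given in the order sedentary, running, sedentary infarct, running infarct.

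Cardiac resident macrophages are long-lived phagocytes of the interstitium that are seeded in large part before birth and renew themselves locally. They clear dying cells and the debris that cardiomyocytes shed, scavenge modified proteins, iron and haemoglobin, and are known by the scavenger receptor Cd163, the hyaluronan receptor Lyve1, the phosphatidylserine receptor Timd4, the folate receptor Folr2 and the complement receptor Vsig4. After an infarct, circulating monocytes that carry the chemokine receptor Ccr2 enter the muscle and become macrophages too, and some of these take on resident-like genes with time. F13a1 encodes the A subunit of coagulation factor XIII and is made by resident macrophages and by monocytes alike.

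The libraries held 5388, 6253, 3243 and 4922 barcodes with 32899707, 37533722, 26170995 and 29916572 UMIs. Members numbered 88, 103, 91 and 179 with median depths of 3142.5, 3278, 3007 and 2806 UMIs, against 2243, 2455, 2866 and 2256 in other macrophages. The running library stood apart in mitochondrial RNA. Its members had a median of 8.26% mitochondrial UMIs, against 4.62, 3.75 and 4.16% in the sedentary, sedentary infarct and running infarct members, and only 10 of its 103 members were at or below 5%, against 46, 65 and 125. Counts of Y-linked transcripts differed with the infarct: 54.5 and 47.6% of the members without infarct but 72.5 and 72.1% of those after infarct had no UMI of the 4 Y-linked genes counted. Members with at least 2 such UMIs, called Y-positive, numbered 18, 31, 16 and 31, or 20.5, 30.1, 17.6 and 17.3%, and those with exactly 1 numbered 22, 23, 9 and 19. Because of this, gene ratios are also given within Y-positive and Y-negative members where they matter. The libraries shared 46 kept barcode sequences over all pairs, and none of these was a member.

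Resident-type macrophages made up a larger share of nuclei after the infarct, yet a smaller share of the macrophages. They were 1.65% (exact Clopper-Pearson interval 1.32 to 2.03) of kept nuclei in the sedentary library and 1.68% (1.37 to 2.03) in the running library. The share was 2.84% (2.29 to 3.47) in the sedentary infarct library and 3.65% (3.14 to 4.21) in the running infarct library. Both infarct libraries lay above both libraries without infarct, with no overlap of the counting intervals under the rule as given. Among macrophage nuclei the order was the reverse. Members were 85.4% (77.1 to 91.6) and 77.4% (69.4 to 84.2) of macrophage nuclei without infarct, 55.2% (47.2 to 62.9) in the sedentary infarct library and 39.3% (34.7 to 43.9) in the running infarct library. Other macrophages numbered 15, 30, 74 and 277. Among nuclei at or below 5% mitochondrial UMIs the members were 92.0, 62.5, 62.5 and 39.8% of macrophage nuclei, so the running value, from 16 nuclei, equalled that of sedentary infarct and the order by infarct was lost.

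**Figure D1:**
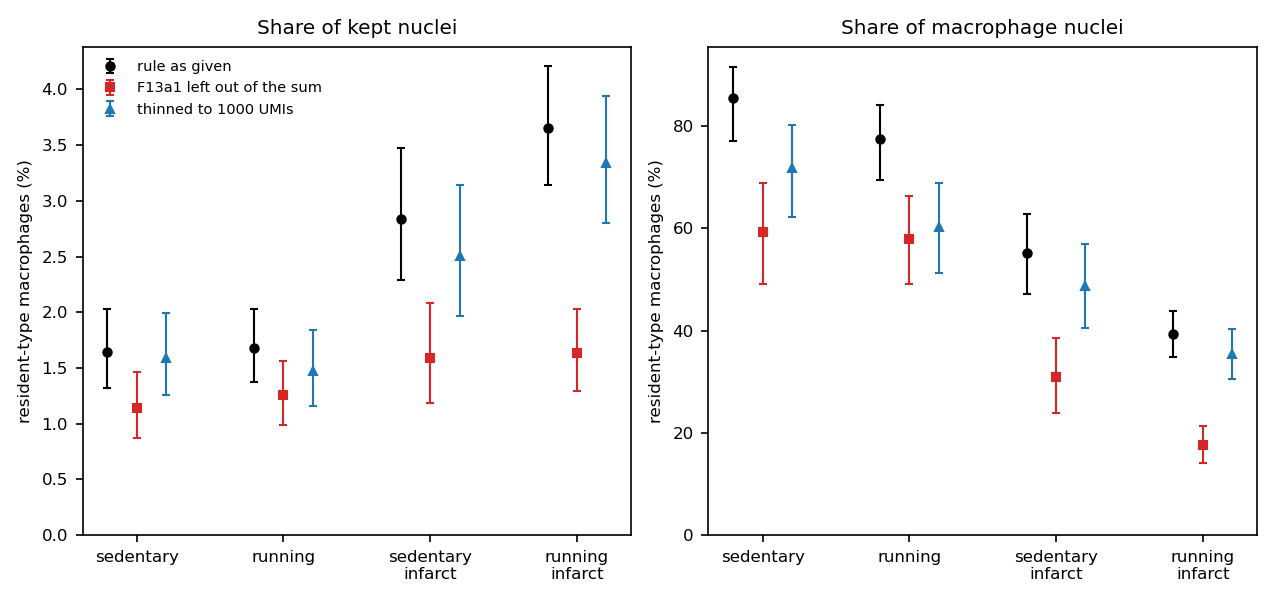
Share of resident-type macrophages among kept nuclei (left) and among macrophage nuclei (right), in percent, for the 4 libraries, with exact 95% Clopper-Pearson intervals. Circles show the rule as given, squares the rule with F13a1 left out of the resident-marker sum, and triangles nuclei thinned to 1000 UMIs; with F13a1 left out the infarct libraries are at 1.59 and 1.63% of kept nuclei against 1.14 and 1.26% without infarct.

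The separation of the shares of kept nuclei depended on the rule, the depth and the mitochondrial limit. With F13a1 left out of the resident sum, members were 1.14% (0.875 to 1.46), 1.26% (0.992 to 1.57), 1.59% (1.19 to 2.09) and 1.63% (1.30 to 2.03) of kept nuclei, and the intervals overlapped. The share of macrophage nuclei kept its order under the same change, at 59.2, 57.9, 30.9 and 17.5%. Thinning every nucleus to 1000 UMIs before the rule gave 1.59% (1.25 to 2.00), 1.47% (1.16 to 1.84), 2.51% (1.97 to 3.14) and 3.34% (2.81 to 3.94) of nuclei, and the sedentary and sedentary infarct intervals then overlapped. At no more than 5% mitochondrial UMIs the shares were 2.48% (1.82 to 3.29), 1.94% (0.935 to 3.54), 3.67% (2.85 to 4.66) and 4.54% (3.79 to 5.39), where sedentary infarct again overlapped both libraries without infarct. The limits on endothelial and fibroblast transcripts also set the number strongly. Of the 318, 402, 296 and 479 barcodes with enough macrophage and resident UMIs, 171, 226, 151 and 235 were over the endothelial limit and 198, 255, 188 and 262 over the fibroblast limit. With these 2 limits dropped, a choice made after the counts were seen, the shares were 5.04, 5.98, 8.61 and 9.26% of kept nuclei.

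Macrophage nuclei with no resident-marker UMI numbered 9, 15, 48 and 194, and those with 12 or more numbered 61, 72, 57 and 94. Members had a median of 19, 17, 15 and 12 resident-marker UMIs. Just inside the threshold, 5, 5, 6 and 14 nuclei held 3 UMIs. Just outside it, 3, 8, 11 and 24 nuclei held 2. A further 3, 7, 15 and 59 nuclei held 1.

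**Figure D2:**
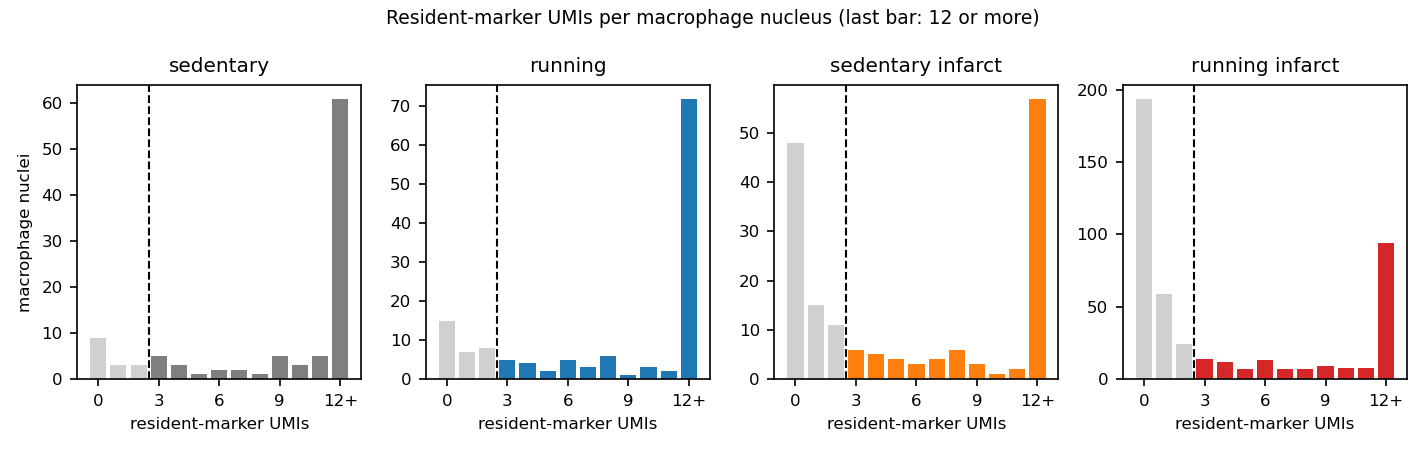
Number of macrophage nuclei by their count of resident-marker UMIs (Cd163, Lyve1, Timd4, Folr2, Vsig4 and F13a1 summed; the last bar holds 12 or more), 1 panel per library with its own vertical scale. The dashed line is the threshold of 3 UMIs and the pale bars are other macrophages; 8 and 7 nuclei of the running library hold 2 and 1 UMIs, against 24 and 59 in the running infarct library.

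F13a1 carried most of the resident-marker signal in every library. It gave 72.6, 70.0, 78.7 and 81.0% of the members' resident-marker UMIs, and its level in counts per 1000000 of the members' non-mitochondrial UMIs (CPM) was 5547, 4626, 5359 and 4911. Other macrophages held 111, 195, 119.7 and 87.3 CPM and all other kept barcodes 196, 223, 237 and 229 CPM. The level was close across the libraries, while the nuclei that F13a1 alone qualified were more common after infarct. Members with F13a1 and none of the 5 further markers numbered 10, 6, 20 and 52, or 11.4, 5.83, 22.0 and 29.1% of members.

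Cd163, Lyve1 and Timd4 were at lower levels after infarct. Cd163 stood at 1060.4, 1008, 703 and 602 CPM and had a UMI in 75.0, 77.7, 59.3 and 47.5% of members. Lyve1 was at 241, 270.4, 135 and 87.5 CPM, with a UMI in 47.7, 48.5, 23.1 and 16.2% of members. Timd4 was at 199, 279, 158 and 104 CPM and in 33.0, 44.7, 18.7 and 17.9% of members. For Cd163, Lyve1 and Timd4 both infarct libraries were below both others in level and in share of nuclei. Folr2 did not follow that order, at 152, 85.2, 174 and 104 CPM and in 29.5, 23.3, 26.4 and 23.5% of members. Vsig4 was at 443, 335, 284 and 253 CPM, so its level was also lower in both infarct libraries. The mannose receptor Mrc1, part of the macrophage condition of the rule, was at 2834, 2587, 2399 and 2928 CPM. Thinned to 1000 UMIs, the Lyve1 shares were 19.8, 17.2, 6.67 and 6.90%, in the same order of infarct against no infarct. In cardiomyocyte-rich nuclei, which should lack it, Lyve1 had a UMI in 3.17, 6.67, 3.33 and 2.78%, at median depths of 4133, 3454, 4241.5 and 1458 UMIs.

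When members were divided by whether they held a UMI of Timd4, Lyve1 or Folr2, a division chosen after the values were seen, the nuclei with one of these genes, which the rule also used, made up 70.5, 71.8, 42.9 and 42.5% of members. As a share of kept nuclei they were 1.16% (0.891 to 1.49), 1.21% (0.949 to 1.51), 1.22% (0.866 to 1.66) and 1.55% (1.22 to 1.94), with overlapping intervals. Members without any of the 3 genes were 0.487% (0.318 to 0.712), 0.473% (0.317 to 0.678), 1.62% (1.21 to 2.12) and 2.10% (1.72 to 2.54) of kept nuclei. The share without the 3 genes was higher in both infarct libraries, with no overlap of intervals. Depth differed as well, and its part was not tested: the median was 3378.5, 3426, 3445 and 3034.5 UMIs with one of them and 2394.5, 3064, 2907 and 2741 without.

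The promoters below show the sequence context of genes that mark members and hold a motif of the type bound by PU.1, the ETS factor on which macrophage development depends. The motif searched was GAGGAAGT and its reverse complement ACTTCCTC on either strand, which are the same motif read both ways. The windows run from 250 bases before to 50 bases after a start of each gene and are taken from RefSeq on build GRCm38.p6. They are written 5' to 3' along the gene with the motif in capitals. F13a1 had 2 such windows, Selenop 3 and Pf4 1, and for each gene the first window that held the motif is shown. F13a1 is shown for its weight in the rule, and of the 5 resident markers of the rule with a window it alone held the motif. Selenop and Pf4 are shown as 2 of the 3 resident-list genes that passed the test described next and hold the motif. The third, Slco2b1, is not printed.
F13a1, chr13:37049164-37049463, minus strand: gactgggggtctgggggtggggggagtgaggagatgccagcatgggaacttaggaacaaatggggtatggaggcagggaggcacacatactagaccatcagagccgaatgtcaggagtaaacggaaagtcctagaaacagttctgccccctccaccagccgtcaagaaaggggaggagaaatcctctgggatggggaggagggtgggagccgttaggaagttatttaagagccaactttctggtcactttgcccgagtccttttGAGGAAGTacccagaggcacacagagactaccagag
Selenop, chr15:3270517-3270816, plus strand: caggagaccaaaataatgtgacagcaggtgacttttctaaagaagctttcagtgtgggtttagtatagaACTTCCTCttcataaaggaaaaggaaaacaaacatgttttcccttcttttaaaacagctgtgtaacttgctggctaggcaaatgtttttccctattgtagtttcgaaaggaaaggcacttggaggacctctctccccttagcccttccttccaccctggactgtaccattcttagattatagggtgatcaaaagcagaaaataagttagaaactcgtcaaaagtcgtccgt
Pf4, chr5:90772185-90772484, plus strand: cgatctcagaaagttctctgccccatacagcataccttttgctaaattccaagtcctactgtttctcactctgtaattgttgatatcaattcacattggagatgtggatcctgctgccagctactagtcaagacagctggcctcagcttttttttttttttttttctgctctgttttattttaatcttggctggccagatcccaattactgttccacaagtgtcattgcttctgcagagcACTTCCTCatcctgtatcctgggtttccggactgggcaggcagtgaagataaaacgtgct
Selenop encodes the selenium carrier selenoprotein P, and Pf4 the chemokine platelet factor 4. The motif was in 3.20% of the 32851 promoters of the table and, counted per gene, in 4.45% of the 4833 tested genes that matched the table. It was in 4.59% of the 218 matched genes that were higher in members and in 6.60% of the 212 that were lower, so it was no more frequent among the former than among the latter. These matches describe the letters of the windows and say nothing of binding.

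Genes outside the rule went with the resident markers. For each library the counts of members and of other macrophages were summed, which gave 8 sums, and the classes were compared with edgeR's quasi-likelihood test with the library as a block and Benjamini-Hochberg adjustment over all 6033 genes tested. The 2 classes were divided by the rule within the same nuclei that were then tested, so the result describes which other genes accompany the resident markers and is no independent evidence that 2 classes exist. Of these genes, 296 (4.91%) were higher and 279 (4.62%) lower in members at an adjusted p under 0.05. Without the sedentary infarct library 166 were higher and 168 lower.

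Resident macrophage genes outside the rule were the group with the most calls in one direction. Of the 18 listed genes 14 were tested, 11 rose and none fell, with a median log2 fold change of 1.49 against -0.01 over all genes tested. Colec12, a scavenger receptor of the collectin family, was at 617, 667, 568 and 523 CPM in members and 66.5, 104, 18.4 and 64.0 CPM in other macrophages. Its log2 fold change was 3.35 ± 0.25 (SE, edgeR adjusted p = 7.6e-11), and members were above other macrophages in 4 of 4 libraries. Cbr2, a carbonyl reductase, was 319, 220.4, 255 and 219.6 CPM in members and 88.7, 39.1, 18.4 and 16.0 CPM in the others (3.35 ± 0.31, edgeR adjusted p = 3.7e-09). Ednrb, the endothelin receptor that clears endothelin, followed with 3.10 ± 0.39.

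The lectin Mgl2 rose by 1.82, the apoptotic-cell bridging ligand Gas6 by 1.70, Pf4 by 1.61, Selenop by 1.51, the scavenger receptor Stab1 by 1.46 and the transcription factor Maf by 1.32 on the log2 scale. The endocytic adaptor Dab2 (1.00) and the transporter Slco2b1 (0.81) also passed the test. Igf1, a growth factor that resident macrophages secrete, had 0.54 ± 0.20 and did not pass (edgeR adjusted p = 0.0874). The prostaglandin-degrading enzyme Hpgd (0.52) did not pass either.

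**Figure D3:**
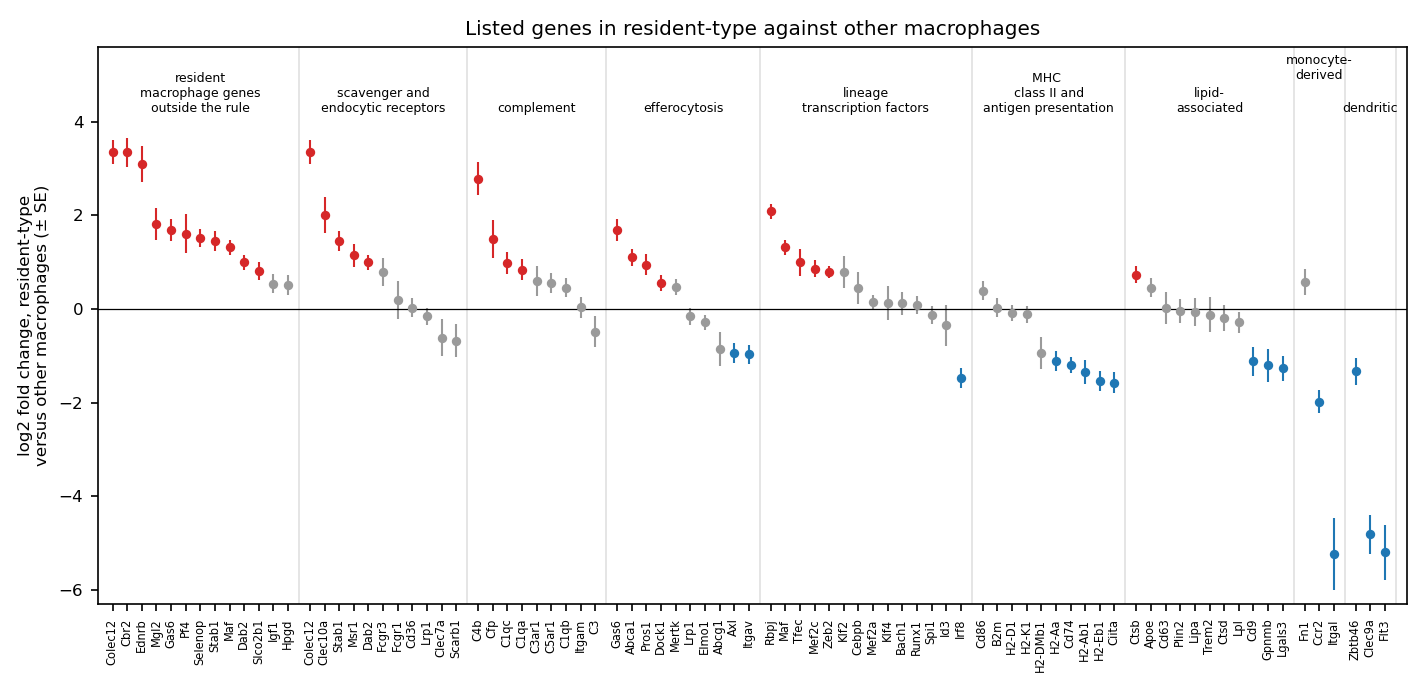
Log2 fold change of members over other macrophages (vertical axis, edgeR, error bars ± SE over 8 class sums) for the tested genes reported from 9 lists, grouped by list. Red genes were higher and blue genes lower at an adjusted p under 0.05, and grey genes did not pass; 11 resident genes outside the rule are red and 5 of 10 genes of antigen presentation are blue.

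Uptake and complement genes rose in part. Among scavenger and endocytic receptors 5 of 11 tested rose and none fell (median 0.79), the lectin Clec10a by 2.01 and the acetylated-lipoprotein receptor Msr1 by 1.15 besides Colec12, Stab1 and Dab2. In the complement list 5 of 10 tested rose (median 0.73). C4b, a component of the classical pathway, had 2.79 ± 0.36, the activator properdin, encoded by Cfp, 1.5, and the C1q chains C1qc and C1qa 0.98 and 0.85. Across the libraries C4b was at 49.7, 85.2, 145 and 214 CPM in members. It was 2.51-fold (1.66 to 3.91) higher in running infarct than in running members, while the sedentary pair held too few UMIs to enter (14 and 45).

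Efferocytosis genes, which serve the uptake of dying cells, differed in both directions. Of 10 tested, 4 rose: the ligands Gas6 and Pros1 (0.95), the cholesterol exporter Abca1 (1.11) and the engulfment factor Dock1 (0.56). The other 2 calls were lower: the receptor kinase Axl (-0.94) and the integrin Itgav (-0.97). The median over the list was 0.16.

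Among lineage transcription factors 5 of 15 rose and 1 fell (median 0.36). Rbpj, the DNA-binding partner of Notch, was at 6628, 6389.9, 4350.1 and 5879 CPM in members and 1197, 2631, 907 and 1253 CPM in other macrophages (2.09 ± 0.16, edgeR adjusted p = 1.7e-10). Maf, Tfec (1.00), Mef2c (0.87) and Zeb2 (0.80) rose as well. Irf8, needed for monocytes and for one branch of dendritic cells, fell by 1.48 on the log2 scale.

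Genes of antigen presentation and of monocytes fell in part. In the list MHC class II and antigen presentation, 5 of 10 tested fell and none rose (median -1.03): Ciita, the master regulator of the class, at -1.57 ± 0.22, the chains H2-Eb1 at -1.54 ± 0.21, H2-Ab1 at -1.34 ± 0.25 and H2-Aa at -1.11 ± 0.21, and the invariant chain Cd74 at -1.19 ± 0.17. The class I genes H2-K1 and H2-D1 and B2m did not pass. A UMI of H2-Aa, H2-Ab1, H2-Eb1 or Cd74 was still found in 42 of 88, 53 of 103, 40 of 91 and 70 of 179 members. Cd74 alone had a UMI in 42.0, 35.0, 28.6 and 26.8% of members and in 0, 2.22, 10.0 and 8.33% of cardiomyocyte-rich nuclei, which should lack it, and no UMI at this depth does not show that a nucleus lacks the transcript. Of the monocyte-derived list 3 of 12 genes were tested and 2 fell, Ccr2 (-1.97 ± 0.25) and the leukocyte integrin Itgal (-5.23 ± 0.76), the latter with 2 UMIs in all members together. Fn1 did not pass (0.57 ± 0.28).

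Other groups gave few calls. Of 6 growth factors and cytokines tested, Pdgfc, a growth factor for fibroblasts, rose by 1.80 and Fgf13 fell (-0.91). Of 7 heme and iron genes tested, the transferrin receptor Tfrc rose by 2.62 and biliverdin reductase, Blvrb, by 0.90. Of 11 lipid-associated genes tested, Ctsb rose (0.74), while Cd9 (-1.11), Gpnmb (-1.20) and Lgals3 (-1.26) fell. Of 10 cytokine and growth factor receptors tested, the TGF-beta receptor Tgfbr1 fell by 1.85 and the fractalkine receptor Cx3cr1 by 0.90. The 8 heat shock genes and 5 interferon response genes tested had no call in either direction.

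Further genes named by size, with the same direction in all 4 libraries, were led by Hsf3, a heat shock factor family gene (4.47 ± 0.35, edgeR adjusted p = 1.2e-10). It was at 383, 314, 152 and 214 CPM in members and 0, 13, 9.21 and 10.2 CPM in other macrophages. Ifi202b, of the interferon-inducible p200 family (3.45 ± 0.36), Ltc4s, the leukotriene C4 synthase (3.34 ± 0.42), Plekhg5 (3.33 ± 0.30), Rgs7bp (2.94 ± 0.52) and the flagellin receptor Tlr5 (2.80 ± 0.52) were higher as well. In the other direction the serotonin receptor Htr7 had 0 UMIs in all members and 58 in other macrophages, at least 28.1-fold lower when 3 counts over the group are allowed. Itgae (-4.07), Sirpb1a (-3.97), Ap1s3 (-3.92), Btla (-3.86), Dpp4 (-3.79) and Rbfox1 (-3.78) were lower. Rbfox1 had 11170.0, 91.2, 391 and 484 CPM in other macrophages, and 504 of those UMIs came from the 15 sedentary nuclei, while running members held 70.5 CPM against 91.2 in running other macrophages.

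The other macrophages included nuclei with dendritic cell transcripts. Clec9a (-4.81 ± 0.41), Flt3 (-5.20 ± 0.59) and Zbtb46 (-1.33 ± 0.28), all 3 tested genes of the dendritic list, fell, and that list summed to 74.5, 88.2, 58.0 and 62.5 CPM in members against 554, 651, 585 and 316 CPM in other macrophages. At least 1 UMI of the list was in 4 of 15, 8 of 30, 21 of 74 and 55 of 277 other macrophages and in 16 of 88, 19 of 103, 15 of 91 and 27 of 179 members. With all these nuclei left out, a choice made after the data were seen, 179 genes were higher and 139 lower of 5213 tested. Resident genes outside the rule then kept 10 calls of 14 tested, MHC class II and antigen presentation 4 of 10 in the lower direction, and complement 1 of 8 in the higher direction. The calls of Irf8 (edgeR adjusted p = 0.508) and Rbfox1 (0.934) were lost, and those of Ccr2 and Tgfbr1 were not. Apart from Rbfox1, the genes named by size as lower were no longer among the genes tested. These were Htr7, Itgal, Flt3, Clec9a, Itgae, Sirpb1a, Ap1s3, Btla and Dpp4. Among the genes named by size as higher, C4b and Rgs7bp were not tested either.

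The infarct contrast within members was read on the 2 pairs of libraries that share no mice, sedentary infarct against sedentary and running infarct against running. Genes with 100 or more UMIs in the pair were compared, and a CPM ratio of 1.5-fold or more in either direction was counted. In the sedentary pair 94 of 1431 genes (6.57%) were higher and 93 (6.50%) lower after infarct. In the running pair 160 of 2233 genes (7.17%) were higher and 107 (4.79%) lower. Of the 1426 genes that entered in both pairs, 183 were past the fold in the first and 141 in the second. They shared 22 genes higher and 21 lower in both, which is 23.5% of the first list and 30.5% of the second, and 4 genes were past the fold in opposite directions. The mitochondrial share and the share of Y-negative members differed between these libraries, as given above.

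**Figure D4:**
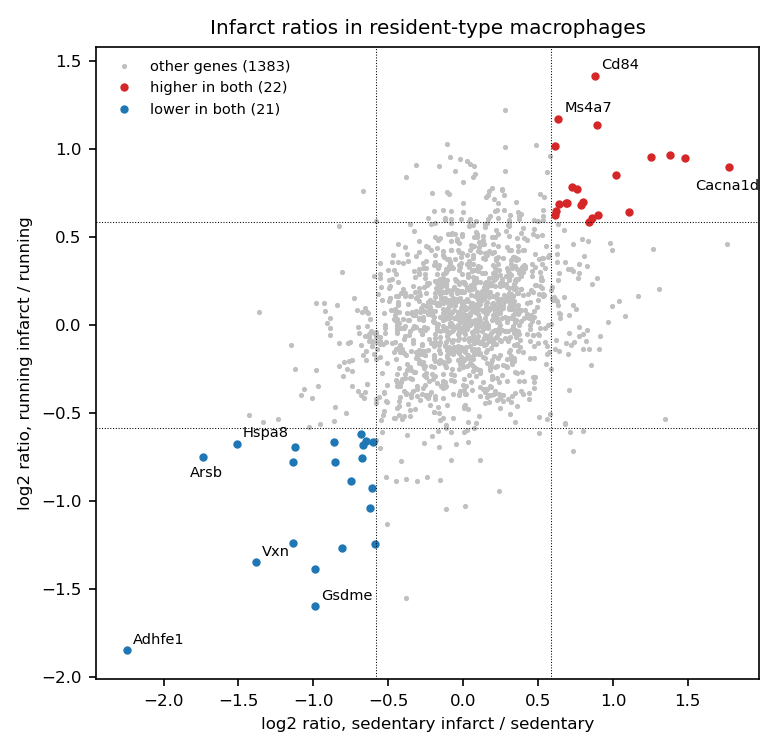
Log2 ratio of infarct over no infarct in members, sedentary pair on the horizontal and running pair on the vertical axis, 1 point per gene with at least 100 UMIs in each pair, and 1 library per group. Dotted lines mark 1.5-fold; the 22 red genes are past it upwards and the 21 blue genes downwards in both pairs, with Adhfe1 at -2.25 and -1.85.

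Genes higher after infarct in both pairs included signalling, RNA-editing and membrane-traffic genes. Ehd4, an endosomal recycling ATPase, stood at 269.5, 347, 642 and 671 CPM, 2.38-fold (1.82 to 3.14) higher in the sedentary and 1.94-fold (1.57 to 2.40) higher in the running pair. Apobec1, a cytidine deaminase that edits RNA, was at 259, 253, 674 and 494 CPM, 2.60-fold (1.99 to 3.45) higher and 1.96-fold (1.53 to 2.52) higher. Pde7b, a cAMP phosphodiesterase, was at 188, 303, 526 and 584 CPM, 2.80-fold (2.04 to 3.89) higher and 1.93-fold (1.54 to 2.43) higher. For each of the 3 both infarct libraries were above both libraries without infarct. In the sedentary pair the same direction in Y-positive and in Y-negative members was a condition of naming them. In the running pair, where they were not named by that condition, the direction was also the same in both kinds of members. Pde7b was also abundant outside the members, at 419.8, 492, 422 and 490.2 CPM over all other kept barcodes, where the values with and without infarct were close.

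The macrophage surface genes Cd84 and Ms4a7 were also higher. Cd84, a receptor of the SLAM family, was at 269.5, 156, 497 and 416 CPM, 1.84-fold (1.39 to 2.46) higher and 2.67-fold (1.97 to 3.67) higher. Ms4a7, a tetraspan protein of macrophages, was at 337, 285, 522 and 643 CPM, 1.55-fold (1.20 to 2.02) higher and 2.25-fold (1.80 to 2.85) higher. Ms4a7 was higher still in other macrophages of the infarct libraries, whose 4 levels were 88.7, 169, 1008 and 956 CPM, and in the 23 against 29 Ms4a7 UMIs of Y-positive members of the sedentary pair the direction was the opposite (log2 ratio -0.38). Cacna1d, a calcium channel subunit, was at 149, 235, 509 and 437 CPM, 3.42-fold (2.42 to 4.93) higher and 1.86-fold (1.44 to 2.43) higher. In members at or below 5% mitochondrial UMIs, where the running library kept only 10, the running pair of Cacna1d turned to a log2 ratio of -0.70. Myo1e, a class I myosin of membrane ruffles, was at 88.7, 144, 299.9 and 198 CPM and past 1.5-fold only in the sedentary pair (3.38-fold higher, interval 2.16 to 5.49), with 1.38-fold (0.975 to 1.97) higher in the running pair. The difference between the pairs was not tested.

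**Figure D5:**
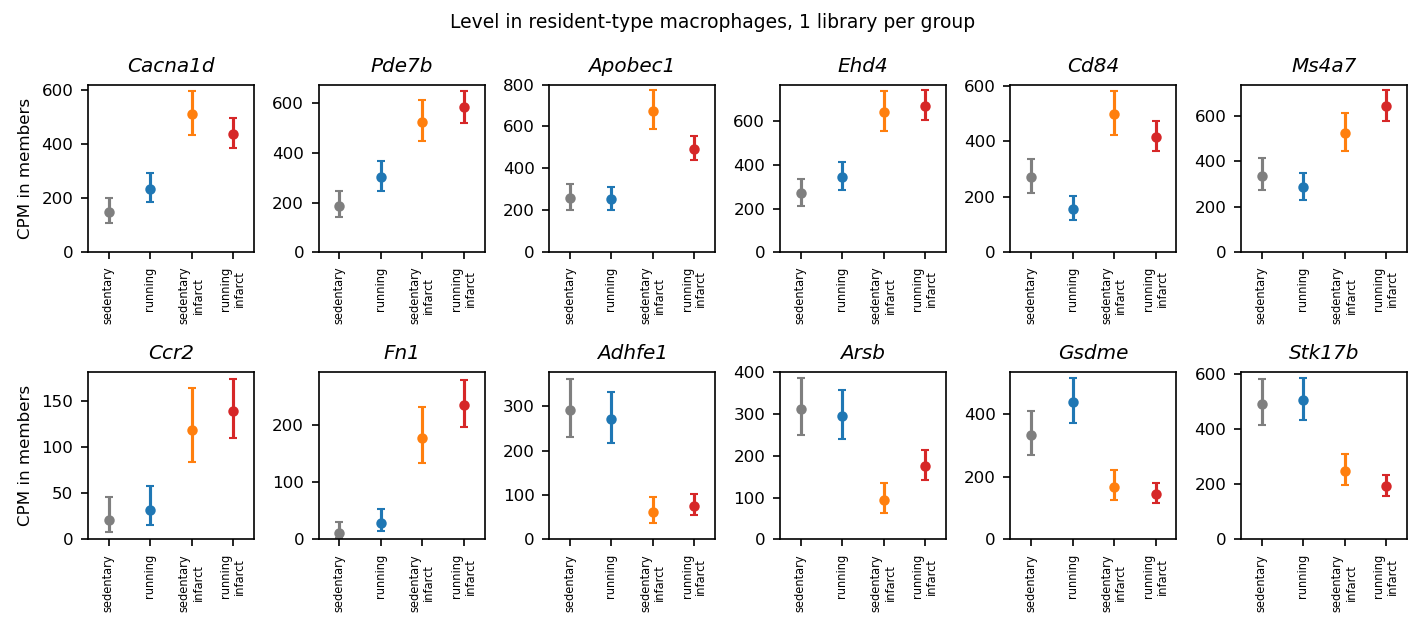
Level in members, in CPM with exact 95% Poisson intervals, of 12 genes named in the infarct comparisons, 1 point per library and its own vertical scale per gene. The 12 genes are a selection of those named, so their common order is not a result over all named genes. In all 12 panels both infarct libraries lie on the same side of both libraries without infarct, as for Adhfe1, at 291 and 270.4 against 61.3 and 75.0 CPM. Fcrls, named in the running pair but not plotted, does not follow this order.

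Genes lower after infarct in both pairs included a metabolic and a lysosomal enzyme. Adhfe1, a mitochondrial alcohol dehydrogenase that oxidises hydroxybutyrate, was at 291, 270.4, 61.3 and 75.0 CPM, 4.75-fold (2.86 to 8.28) lower in the sedentary and 3.61-fold (2.48 to 5.33) lower in the running pair. It had the lowest ratio of the genes lower in both pairs. Its log2 ratios were -2.21 and -2.46 in Y-positive members and -2.34 and -1.63 in Y-negative members. The same direction in both kinds of members was a condition of naming it in each pair. With F13a1 left out of the rule the log2 ratios of Adhfe1 were -2.07 and -1.44, the same direction. Arsb, a lysosomal sulfatase that trims chondroitin and dermatan sulfate, was at 312, 294, 93.5 and 175 CPM, 3.34-fold (2.17 to 5.27) lower and 1.68-fold (1.26 to 2.24) lower. The running pair of Arsb was 1.34-fold lower with F13a1 left out of the rule. At no more than 5% mitochondrial UMIs, where the running library kept only 10 members, its log2 ratio was -0.05. Gsdme, a gasdermin that forms pores when caspases cleave it, was at 333, 438, 168 and 145 CPM, 1.99-fold (1.40 to 2.85) lower and 3.03-fold (2.30 to 4.02) lower. Stk17b, a kinase linked to apoptosis, was at 493, 506, 248 and 193 CPM, 1.99-fold (1.49 to 2.66) lower and 2.62-fold (2.05 to 3.37) lower. St3gal6, a sialyltransferase, was at 429, 503, 329 and 171 CPM and past the fold only in the running pair (2.93-fold lower, interval 2.27 to 3.81), with 1.30-fold (0.994 to 1.71) lower in the sedentary pair, a difference between the pairs that was not tested. Hsf3, which marked members, was at 383, 314, 152 and 214 CPM, 2.53-fold (1.78 to 3.64) lower and 1.47-fold (1.12 to 1.92) lower.

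With F13a1 left out of the resident-marker sum, all 43 shared genes kept their direction in both pairs and 26 stayed past 1.5-fold in both. In Y-positive members 39 kept their direction and in Y-negative members 42. At no more than 5% mitochondrial UMIs 34 did.

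As a list, resident genes outside the rule were not past the fold after infarct, with the exception of Mgl2. Of 11 that entered, none was higher and 1, Mgl2, lower in the sedentary pair (median log2 ratio 0.13, against 0.03 over all genes that entered), and none was past the fold in the running pair (median -0.01, against 0.04). The listed resident macrophage genes outside the rule summed to 7902, 7351, 8732 and 7432 CPM in members. Mgl2 was at 248, 153, 113 and 73.2 CPM and had a UMI in 45.5, 29.1, 19.8 and 15.6% of members. It was 2.20-fold (1.45 to 3.40) lower in the sedentary pair and 2.09-fold (1.36 to 3.23) lower in the running pair, the latter from fewer than 100 UMIs. Colec12 was at 617, 667, 568 and 523 CPM with a UMI in 54.5, 51.5, 33.0 and 27.9% of members, so it was detected in a smaller share of nuclei after infarct. Stab1 was at 1159.7, 929, 1435 and 1385 CPM, Maf at 1181, 1340.3, 1528 and 1292 CPM and Selenop at 543, 379, 580.4 and 507 CPM. Stab1 was 1.24-fold (1.07 to 1.43) higher and 1.49-fold (1.31 to 1.71) higher, and the complement chain C1qa, at 415, 309, 277 and 269.6 CPM, was 1.496-fold (1.12 to 2.00) lower and 1.14-fold (0.884 to 1.48) lower. Igf1 was 1.499-fold (1.15 to 1.96) higher, just under the fold, in the sedentary pair and 1.19-fold (0.953 to 1.48) lower in the running pair.

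Monocyte genes were scarce in members and were mostly seen after infarct. Ccr2 had 6, 11, 37 and 78 UMIs, in 5, 3, 9 and 23 nuclei, or 5.68, 2.91, 9.89 and 12.8% of members, at 21.3, 32.3, 119 and 139 CPM. The infarct ratios were 5.61-fold (2.35 to 16.3) higher and 4.31-fold (2.28 to 8.98) higher, from totals under the 100 UMIs that a gene needed to enter. A single nucleus gave 43.2% of the Ccr2 UMIs in sedentary infarct members and another gave 25.6% in running infarct members. Cardiomyocyte-rich nuclei, which should lack Ccr2, had a UMI in 0 of 63, 0 of 45, 1 of 30 and 0 of 72 at the depths given for Lyve1, where 0 of 72 allows up to 4.99% by the exact interval. Other macrophages had a Ccr2 UMI in 33.3, 20.0, 27.0 and 22.7%, at median depths of 2243, 2455, 2866 and 2256 UMIs.

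Ccr2 was counted in members with and without Timd4, Lyve1 and Folr2, with no test of the difference. Members without the 3 genes held a Ccr2 UMI in 1 of 26, 3 of 29, 9 of 52 and 16 of 103 nuclei, against 4 of 62, 0 of 74, 0 of 39 and 7 of 76 with one of the 3 genes. When F13a1 was left out of the rule, the sedentary pair kept 2 and 4 Ccr2 UMIs (infarct and no infarct) and the running pair 14 and 1. From these few UMIs, Ccr2 was then not higher in sedentary infarct than in sedentary members. In the running pair it was still higher after infarct, by 12.6-fold, from 14 and 1 UMIs. At no more than 5% mitochondrial UMIs, where the running library kept only 10 members, the running pair held 72 and 5 Ccr2 UMIs, 1.30-fold higher. The sedentary pair then held 21 and 3, 5.06-fold higher.

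Fn1, encoding fibronectin, had 3, 10, 55 and 132 UMIs in members and was 8.02-fold (4.22 to 17.1) higher in the running pair. Its level in members, 10.6, 29.4, 177 and 236 CPM, was under that of all other kept barcodes in each library, 69.4, 76.3, 266 and 359 CPM. A UMI was in 3.41, 7.77, 17.6 and 27.4% of members and in 6.35, 8.89, 20.0 and 19.4% of cardiomyocyte-rich nuclei, which should lack it, and thinned to 1000 UMIs the running infarct shares were 9.77 and 7.55%. How much of the Fn1 level of members is their own expression was not tested, and the level is not read as such. Arhgap24, a GTPase-activating protein, shared this limit in part: it was at 28.4, 50, 174 and 202 CPM in members, 4.04-fold (2.41 to 7.17) higher in the running pair, while all other kept barcodes held 398, 397, 289 and 284 CPM. Fcrls, a microglia and macrophage Fc receptor-like gene, was at 145, 70.5, 129 and 207 CPM, 2.94-fold (1.88 to 4.77) higher in the running pair and 1.13-fold (0.711 to 1.79) lower in the sedentary pair.

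Heat shock transcripts were highest in the sedentary library, in members as in the other nuclei. Hspa8, the constitutive Hsp70, was at 294, 191, 103 and 119.6 CPM, 2.85-fold (1.88 to 4.43) lower and 1.60-fold (1.12 to 2.28) lower after infarct, and Hsp90ab1, at 312, 170.5, 116 and 119.6 CPM, was 2.69-fold (1.80 to 4.08) lower and 1.43-fold (0.985 to 2.06) lower. The heat shock list summed to 1812, 964, 642 and 671 CPM in members and to 1722, 895, 629.9 and 627 CPM in all other kept barcodes, so the level around the members moved with theirs. Its part in the members' values was not tested.

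Running without an infarct was compared over the sedentary and running libraries, whose members differed in mitochondrial share as given above. In running members 49 of 1497 genes (3.27%) were past 1.5-fold upwards and 65 (4.34%) downwards. The pair shares its libraries with the infarct comparisons, so values are only set side by side. Runx1, a transcription factor of blood cells, was at 1876, 961, 1180.2 and 1629.8 CPM, 1.95-fold (1.70 to 2.25) lower in running than in sedentary members, and in the infarct pair it was 1.38-fold (1.22 to 1.56) higher in running infarct than in sedentary infarct members. Ms4a4a, a tetraspan of alternatively activated macrophages, was at 429, 197, 287 and 296 CPM (2.18-fold lower, interval 1.60 to 2.98). The Rab11 effector Rab11fip5 was at 301, 129, 242 and 243 CPM (2.33-fold lower, interval 1.60 to 3.44), and the Mediator subunit gene Med12l at 316, 141, 123 and 148 CPM (2.24-fold lower, interval 1.56 to 3.25). St13, a cochaperone of Hsp70, was at 269.5, 103, 152 and 152 CPM (2.62-fold lower, interval 1.73 to 4.03).

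In the other direction Lrp1b, a giant lipoprotein receptor relative, was at 149, 326, 239 and 221 CPM in members, 2.19-fold (1.52 to 3.20) higher with running. All other kept barcodes held 154, 278, 164 and 125 CPM of it, so their running level was the highest as well. Rnf213, a ubiquitin ligase, was at 174, 367, 303 and 334 CPM (2.11-fold higher, interval 1.51 to 3.01). Dlc1 (1.81-fold higher, interval 1.48 to 2.22), a GTPase-activating protein, and Mcc (2.29-fold higher, interval 1.48 to 3.63) were more abundant in all other kept barcodes, at 1914, 1759.8, 1619 and 1489 CPM for Dlc1, than in members. Kcnip4, a potassium channel interacting protein, was at 99.3, 294, 96.7 and 28.6 CPM, 2.96-fold (1.93 to 4.68) higher in running than in sedentary members and 10.3-fold (6.04 to 18.7) lower in the infarct contrast of the running pair. Both directions turned in members at or below 5% mitochondrial UMIs, where the 10 running members held 1 Kcnip4 UMI.

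Complement genes were lower with running in part: of 6 that entered, 2 were at least 1.5-fold lower and none higher (median log2 ratio -0.50). The 3 heat shock genes that entered were all lower (median -0.85). Resident macrophage genes outside the rule had none higher and 1 lower of 11 (median -0.20). The median over all genes that entered was -0.04.

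Running before an infarct was compared over the 2 infarct libraries. Running infarct members had 82 of 2138 genes (3.84%) past 1.5-fold upwards and 61 (2.85%) downwards relative to sedentary infarct members. Hmgb1, a chromatin protein that also acts as a danger signal, was at 152, 168, 74.2 and 177 CPM (2.38-fold higher, interval 1.5 to 3.93), and the small GTPase gene Rab43 at 167, 194, 74.2 and 177 CPM (2.38-fold higher, interval 1.5 to 3.93). Elp4, of the Elongator complex, was at 88.7, 141, 100 and 212 CPM (2.13-fold higher, interval 1.42 to 3.27), and Plcl1 (1.89-fold higher, interval 1.37 to 2.65) and the GTPase regulator Arhgap18 (1.59-fold higher, interval 1.31 to 1.95) were higher as well. For Hmgb1, Rab43 and Arhgap18 it was the sedentary infarct value that stood below the other 3 libraries.

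Rasgrp3, an activator of Ras, was at 219.9, 173, 397 and 148 CPM (2.68-fold lower, interval 2.01 to 3.58), and Nptn, encoding neuroplastin, at 287, 388, 499.8 and 255 CPM (1.96-fold lower, interval 1.55 to 2.48). Tns1, a focal adhesion gene, was at 415, 406, 684 and 375 CPM (1.82-fold lower, interval 1.5 to 2.22) and Memo1 at 92.2, 115, 232 and 107 CPM (2.17-fold lower, interval 1.52 to 3.11). Here the sedentary infarct value stood above the other 3 for each gene. Myl2, the ventricular myosin light chain, was 1.94-fold (1.52 to 2.48) lower too, at 546, 432, 461 and 237 CPM in members and 679.7, 581, 566 and 316 CPM in all other kept barcodes, a cardiomyocyte transcript that moved with its level around it. The 3 glucocorticoid-responsive genes that entered, Fkbp5, Tsc22d3 and Zbtb16, were all lower in running infarct members (median log2 ratio -0.76). The listed glucocorticoid-responsive genes summed to 1224, 1249, 1180 and 727 CPM in members. Resident macrophage genes outside the rule had none higher and 1 lower of 11 (median -0.20).

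Transcripts of other cell types were present in members. The 12 cardiomyocyte genes summed to 4156, 3642, 3254 and 2767 CPM in members and to 12828, 10876, 9552 and 6119 CPM in all other kept barcodes, with all 12 detected in members of each library. Their median per member was 10.5, 9, 10 and 8 UMIs. In members the 9 fibroblast genes summed to 1057, 1137, 896 and 1155 CPM and the 8 blood endothelial genes to 390.1, 379, 313 and 348 CPM. Their part in the differences between libraries was not tested. Cd3e, Ncr1, S100a8 and S100a9 had no UMI in any member, but other lymphocyte and granulocyte genes did. Of the 10 lymphocyte genes listed, 4, 4, 6 and 6 had a UMI in members, among them Cd247 and Ms4a1 in each library. The 7 granulocyte and mast genes gave 22, 23, 48 and 67 UMIs, of which Csf3r gave 95.5, 95.7, 97.9 and 98.5%. The lymphocyte list was almost all Bank1, which gave 98.3, 96.7, 95.4 and 94.6% of its UMIs and was itself higher in members than in other macrophages (1.31 ± 0.21, edgeR adjusted p = 4.2e-05).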

How the data were processed

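The deposited files hold raw UMI counts per gene and barcode for 4 libraries, made by the authors with Cell Ranger 7.1 on GRCm39, per the submitters' processing notes. No cell annotation was used. Members were found by the stated rule. Their counts were summed per library and divided by the non-mitochondrial total to give CPM. With 1 library per group, libraries were compared by CPM ratios with exact conditional binomial intervals, levels with exact Poisson intervals and shares with Clopper-Pearson intervals, at 95%. The only test compared members with other macrophages (edgeR 4.0.16, TMM, library block). On simulated data over 5718 genes it recovered 58% of 2-fold and 93% of 4-fold changes and called 5 unchanged genes. The simulation gave every gene the same dispersion (0.0237) and no difference between libraries beyond the totals. These rates therefore need not hold for the real sums.

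The members and gene lists were chosen with earlier results of these data known. Named genes were the 10 per direction with the largest log2 fold change and the same direction in all 4 libraries for the class test, and, per library comparison, the 5 per direction whose interval lay farthest from even, with the same direction in Y-positive and Y-negative members and a level in other nuclei at most 2 times theirs. Listed genes that passed, or else those with most UMIs, were named too. Genes outside this rule, among them Fn1, Ccr2 and Kcnip4 in comparisons where they did not qualify, were chosen after their values were seen. So were the division by Timd4, Lyve1 and Folr2, the removal of nuclei with dendritic markers, the dropping of the endothelial and fibroblast limits, and the promoters printed.

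Under the rule as given, doublets were limited only by its conditions on cardiomyocyte, endothelial and fibroblast transcripts. How many remained was not tested. In running infarct, single members held up to 58 UMIs of the fibroblast list and up to 56 of the pericyte and smooth muscle list. Scrublet's automatic calls (0, 0, 0 and 1640) were not usable, so an alternative removed the top scores at 0.8% per 1000 barcodes (232, 313, 84 and 194 barcodes, among them 0, 0, 0 and 3 members). Python 3.11.15, numpy 2.4.6, scipy 1.17.1, pandas 2.3.3, scanpy 1.11.5, R 4.3.3 and, as an alternative test, DESeq2 1.42.0 were used. A few listed genes are not reported here by name and are left out of the plot, while counts over lists hold them. Coordinates are RefSeq's on GRCm38.p6, not the build of the files.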

Additional observations from a re-analysis of the deposited data

Results flagged for a closer look

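Some genes differed in opposite directions in 2 pairs of libraries under the same contrast. Each pair is 1 library against 1, and the difference between the pairs was not tested. All values are log2 ratios of CPM in members.

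For infarct against no infarct, the sedentary pair is given first and the running pair after it. Runx1 was at -0.67 and 0.76, and Ms4a4a at -0.58 and 0.59. Nptn was at 0.80 and -0.60, Fkbp5, a glucocorticoid-responsive chaperone, at 0.68 and -0.57, and Lrp1b at 0.68 and -0.56. Dock1 was at 0.47 and -0.32.

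For running against sedentary, the pair without infarct is given first and the infarct pair after it. Nptn was at 0.43 and -0.97, Runx1 at -0.96 and 0.47, and Fkbp5 at 0.49 and -0.76. Abca1 was at -0.36 and 0.25, and Mef2c at -0.29 and 0.35. Both contrasts use the same 4 libraries, so a gene given under both is not seen independently in each.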

How the results depend on the processing

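Values in 4s follow the order of the report. With 1 library per group, nothing here speaks to variation between mice, and hearts and sexes within a pool were not separated. Shares of kept nuclei were 2.48, 1.94, 3.67 and 4.54% at no more than 5% mitochondrial UMIs, 1.14, 1.26, 1.59 and 1.63% with F13a1 left out, and 5.04, 5.98, 8.61 and 9.26% with the endothelial and fibroblast limits dropped. Shares of macrophage nuclei were 92.0, 62.5, 62.5 and 39.8% at no more than 5% mitochondrial UMIs, 59.2, 57.9, 30.9 and 17.5% with F13a1 left out, 71.8 and 60.3% (sedentary, running) after thinning, and 49.0% in running infarct with the limits dropped. In running infarct a minimum of 5 resident UMIs gave 3.12 and 33.6%, and a minimum of 2 gave 44.5% of macrophage nuclei.

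The percent of genes past 1.5-fold in the sedentary infarct pair was 30.2 in Y-positive members and 2.17 at 2-fold. In the running infarct pair it was 31.0 at no more than 5% mitochondrial UMIs, 6.60 at 500 UMIs and 2.10 at 2-fold. For running against sedentary it was 18.2 at no more than 5% mitochondrial UMIs, 21.8 in Y-positive members, 14.8 at 50 UMIs, 2.08 at 500 UMIs and 1.47 at 2-fold. For running infarct against sedentary infarct it was 25.4 in Y-positive members, 13.5 at 50 UMIs, 1.06 at 500 UMIs and 0.42 at 2-fold. A denominator of all genes, mitochondrial ones included, turned 49 higher and 65 lower for running against sedentary into 45 and 101, and 160 and 107 for running infarct against running into 211 and 77.

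Genes higher and lower in members numbered 130 and 102 after thinning, 127 and 95 at no more than 5% mitochondrial UMIs, 179 and 139 without dendritic-marker nuclei, and 156 and 156 by DESeq2. Leaving out 1 library at a time gave 166 to 304 higher and 168 to 282 lower, the lowest without sedentary infarct. Thinning, the mitochondrial limit and the dendritic removal left fewer genes or nuclei to test, and for the rest the cause was not tested. Among named genes of the class test, 714 checks kept the call and 107 lost it. The median of fibroblast genes for running infarct against sedentary infarct turned to -0.24 with F13a1 left out. Kcnip4 turned to 0.12 in the running infarct pair and to -2.02 for running against sedentary at no more than 5% mitochondrial UMIs. No paired analysis was possible because the groups share fewer than 2 replicate numbers. A fit of running and infarct as additive terms over the 4 libraries was not run.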

Other observations

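Bank1, a B cell adaptor gene, was found in members at 1216, 941, 597 and 628 CPM (343, 320, 185 and 352 UMIs), with 69, 80, 57 and 105 nuclei holding a UMI. Of the other listed B cell genes, Ms4a1 had UMIs in members of each library and Pax5 only in sedentary infarct members. The T cell gene Cd3e and the NK cell gene Ncr1 had none in any library. Marco, a scavenger receptor, had 51 UMIs in sedentary infarct members, of which 94.1% came from 1 nucleus. Mki67, a proliferation marker, had 0, 24, 3 and 5 UMIs in members, the 24 of the running library in 4 nuclei with 12 in 1 of them. A single running nucleus held 52 of the 129 UMIs of the cell cycle list.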
